A study of Mus musculus with 3 samples.

Results

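Laminin chain transcripts were compared across primary cultures of mouse ocular pigment epithelium from the iris (IPE), the ciliary body (CBPE) and the retina (RPE). The genes are Lama1 to Lama5 for the α chains, Lamb1 to Lamb3 for the β chains and Lamc1 for the γ1 chain, a set defined by gene name, drawn up with earlier results of these data known. These 9 genes, of 18193 represented on the array, are covered by 17 probe sets, short groups of oligonucleotides that each read part of a transcript, and every probe set annotated to them alone was used. The donors of all 3 cultures were adult C57BL/6 mice aged 6 to 8 weeks, with no transgene or treatment named. Iris and ciliary body cells were freed with Dispase and DNase I and grown in RPMI 1640 with 10% fetal bovine serum. RPE cells came from trypsin-treated posterior eyecups and were grown in DMEM with 20% serum, so medium, serum, dissociation and tissue cannot be told apart in a comparison with RPE. Every culture was kept without serum overnight before RNA was taken. Flow cytometry is reported to have shown more than 99% cytokeratin-positive cells in IPE, and the labels give more than 95% after 14 days for CBPE and RPE. No culture time was found for IPE, so it may also differ from the other cultures in that. Each culture was measured on 1 array, and the labels do not say how many mice it pooled, so every value below is a single measurement with no replicate error and no test between cultures is possible.

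Laminins are large secreted glycoproteins that assemble inside the cell from an α, a β and a γ chain and then polymerise into the sheet that founds a basement membrane. The α chain carries the globular domains bound by integrins and dystroglycan, and the γ1 chain is shared by most trimers found outside the skin. In the eye, pigment epithelia rest on laminin-containing basement membranes, among them Bruch's membrane under the retinal layer and the membranes of the ciliary epithelium, and the loss of particular chains disturbs the retina and the lens.

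Signals are the deposited linear intensities, already on a common scale. Signals below an array's 50th percentile over non-control probe sets, which is 14.5 for IPE, 17.3 for CBPE and 16.8 for RPE, were raised to that floor before log2 was taken. Control probe sets for bacterial genes foreign to mouse cells reached 20.2 in CBPE, above its floor. The brightest probe set, by mean log2 signal, represents a gene, and the others are given beside it. The only error that could be measured is the disagreement between probe sets of 1 gene: the SD of the log2 difference, over genes whose probe sets exceeded 100 on both arrays, was 0.49 for CBPE minus IPE, 0.45 for RPE minus IPE and 0.29 for RPE minus CBPE. It leaves out the spread between cultures. Signals of different genes were not set against each other, because probe sets differ in how brightly they read the same amount of RNA.

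The arrays and cultures differed in ways that bear on every comparison. The beta-actin controls had a 3′ over 5′ signal of 1.5 in IPE, against 2.26 in CBPE and 2.25 in RPE, and the Gapdh controls of 0.940, 1.23 and 1.25. The summed signal of the pigment cell genes was 8717 in IPE, against 1744 in CBPE and 2975 in RPE. Rpe65, the defining enzyme of the retinal pigment epithelium, was under the floor on all 3 arrays, RPE included, as were Lrat and Slc16a8 of the same list. Of its 9 genes, 4 were above the floor in IPE, as in CBPE, with 3 in RPE, and the sum was 571.7 in IPE, against 313.5 in CBPE and 183.4 in RPE. Otx2, a transcription factor of the pigment epithelium, was above the floor on all 3 arrays, at 329.6, 61.9 and 54.4. The epithelial cadherin gene Cdh1 was under it too, whereas the keratin genes Krt8 and Krt18 were above it on all 3. The 10 epithelial genes summed to 337.8 in IPE, against 685.6 in CBPE and 449.9 in RPE. Of 10 fibroblast genes, all were above the floor on every array and summed to 27904 in IPE, against 55954 in CBPE and 44616 in RPE. Not every gene had the order of the sum: Pdgfra, at 2020.3, 776.6 and 958.1, and Fap, at 364.8, 318.9 and 259.0, were highest in IPE. Macrophage and leukocyte genes summed to 358.6, 2310 and 523.9, with Ptprc and Itgam under the floor on all arrays. The part of these cells in the laminin signals was not tested. In bulk RNA, fewer cells of a type and less RNA per cell cannot be told apart.

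Lama2, Lama5, Lamb1 and Lamc1 had signals in IPE at least 2-fold above those in CBPE, and also above those in RPE, while Lama1 and Lamb2 had their lowest signals in IPE. Both comparisons use the same IPE array, so whatever is particular to it enters both. Of the 9 genes, 7 exceeded a floor and could be compared. Between CBPE and IPE, 4 of these 7 differed by 2-fold or more, all 4 with IPE higher, and their median log2 difference was -1.05 as CBPE minus IPE. Among all 12831 genes measured in that pair, 24.3% differed 2-fold either way, 12.5% with IPE higher and 11.8% with CBPE higher, and the median was 0.04. Between RPE and IPE, 4 of 7 again differed by 2-fold, all 4 with IPE higher, and the median was -1.28. For that pair 20.3% of 12446 genes differed, 10.5% with IPE higher and 9.87% with RPE higher, and the median was 0.02. Between RPE and CBPE, 0 of 7 laminin genes differed 2-fold by the probe sets that represent them, although a further Lama5 probe set differed 2.52-fold. Of 12860 genes 8.01% did so, 3.75% with RPE higher and 4.26% with CBPE higher, and with 7 genes a count of 0 is close to that share. The laminin median in that pair was -0.23 and that of all genes -0.0020.

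**Figure D1:**
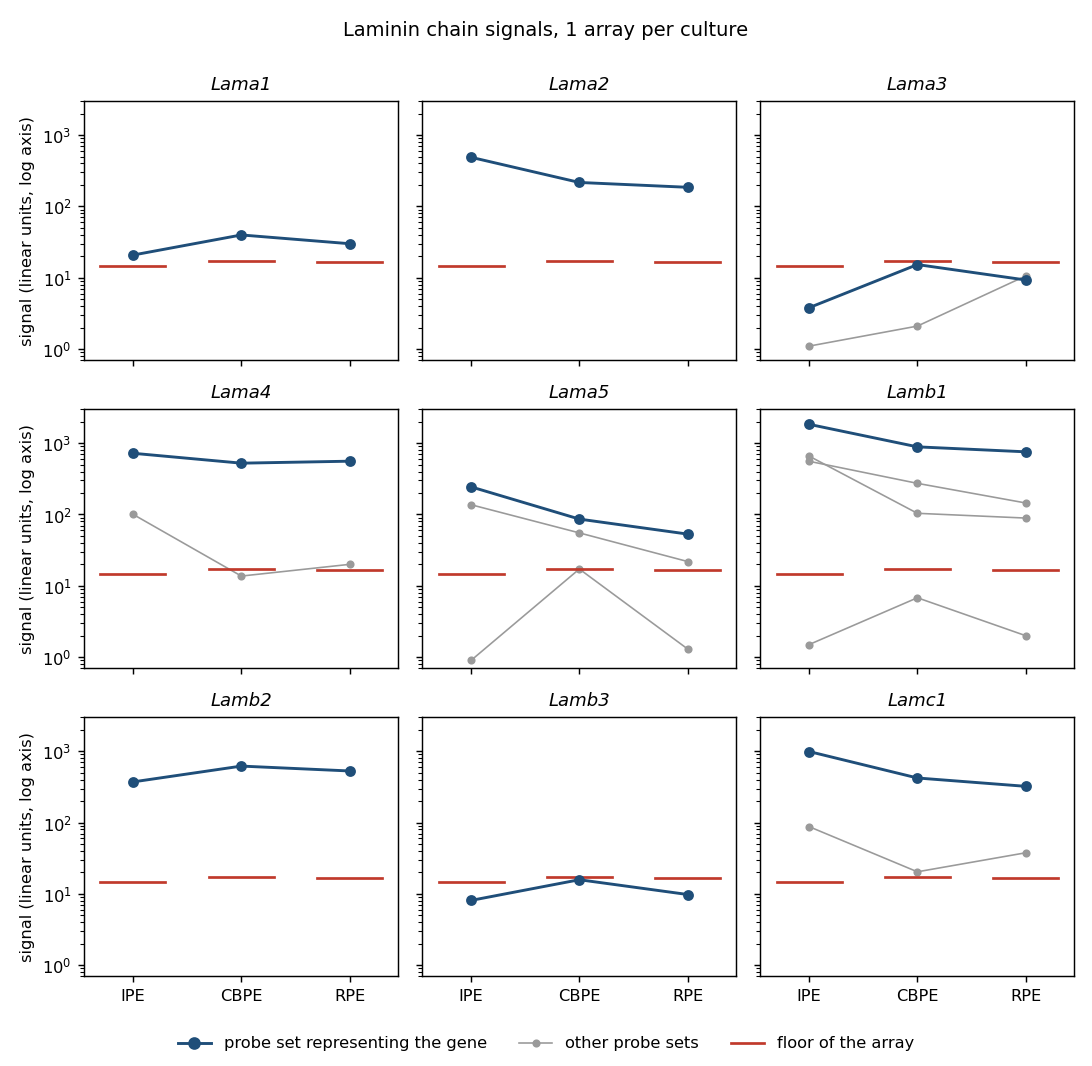
Signal of every laminin probe set on the IPE, CBPE and RPE arrays, on a log axis, with 1 panel per gene, blue for the probe set that represents the gene, grey for the others and red bars for the floor of each array. Lines only join the values of 1 probe set. Lama2, Lama4, Lama5, Lamb1 and Lamc1 are highest in IPE in all of their 10 probe sets above a floor, Lama1 and Lamb2 are lowest there, and Lama3 and Lamb3 stay under every floor.

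Among the α chains, Lama5 had the widest range by the probe sets that represent the genes. It encodes the α5 chain, a main α chain of adult epithelial and vascular basement membranes. The IPE signal was 244.1, against 86.2 in CBPE and 53.1 in RPE, and a further probe set gave 137.1, 55.2 and 21.9. IPE was therefore highest and RPE lowest by both. By the brighter one, IPE was 2.83-fold above CBPE and 4.60-fold above RPE, log2 differences of -1.50 and -2.20 that exceed the probe-set SD. The latter was -1.29 with a floor of 100 on every array, less than the -1.40 of Lama2, and -1.54 with the mean of all Lama5 probe sets. CBPE was 1.62-fold above RPE, a log2 difference of -0.70 in RPE minus CBPE, and 2.52-fold above it by the other probe set. The remaining Lama5 probe set was under the floor everywhere, at no more than 17.2.

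Lama2, which encodes the α2 chain of muscle and peripheral nerve basement membranes, had a single probe set. It read 488.3 in IPE, against 216.7 in CBPE and 185.4 in RPE. IPE stood above both other cultures, which lay close together. The fold was 2.25 over CBPE and 2.63 over RPE, whereas CBPE and RPE differed by 0.23 on the log2 scale, which is within the SD of 0.29. Markers of the cells in which this chain is best known did not all move alike: the summed signal of 11 skeletal muscle genes was 88.6 in IPE, against 1536 in CBPE and 1557 in RPE, with Myod1, Myog and Ckm under the floor on all arrays. Of these genes, 1, 5 and 8 were above the floor in IPE, CBPE and RPE. Most of the CBPE sum was Myh2, at 32.8, 1363 and 808.8 in that order, whereas Myl1 read 7.0, 29.0 and 270.6. The 8 Schwann cell and glial genes on the array summed to 278.2 in IPE, against 142.8 in CBPE and 122.1 in RPE, 7, 3 and 2 of them above the floor. The largest IPE signal among them was that of Ngfr, at 101.0, 23.2 and 11.8. Fabp7, at 8.5, 35.6 and 13.6, was highest in CBPE, and Slc1a3, at 25.7, 14.4 and 47.2, in RPE. The part of these cells in the Lama2 signal was not tested.

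Lama4 encodes the α4 chain, which lacks the N-terminal polymerising domain and is typical of endothelial, fat and muscle basement membranes. Its brighter probe set gave 721.6 in IPE, against 524.1 in CBPE and 558.7 in RPE, so the 3 cultures were similar. The log2 differences from IPE were -0.46 for CBPE and -0.37 for RPE, both within the probe-set SD, and RPE exceeded CBPE by 0.09. The dimmer probe set showed a wider gap, with 100.6 in IPE, 13.7 in CBPE, which is under the floor, and 20.0 in RPE. By that probe set IPE was at least 4.98-fold above CBPE, taken over the 20.2 reached by the bacterial controls, and 5.03-fold above RPE. Both probe sets had IPE highest and disagreed on the size of the difference. The 11 endothelial markers summed to 847.8 in IPE, against 1648 in CBPE and 336.4 in RPE, with 4, 9 and 3 above the floor and Vwf under it on all arrays. Most of that signal was Emcn, at 745.1, 1115 and 211.2. The 11 smooth muscle and pericyte markers summed to 11087 in IPE, against 27530 in CBPE and 18029 in RPE, largely through Acta2 and Tagln. Rgs5, at 10.4, 3973.5 and 1415.9, and Cspg4, at 6.2, 119.5 and 46.6, were under the floor in IPE and highest in CBPE. In contrast, Myh11, at 99.4, 22.1 and 40.0, and Des, at 91.3, 28.5 and 32.4, were highest in IPE. The part of these cells in the Lama4 signal was not tested.

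Lama1, the gene of the α1 chain best known from the embryo, lens capsule and inner limiting membrane, was dim. Its only probe set gave 20.8 in IPE, against 39.8 in CBPE and 30.0 in RPE. All 3 values were above their floors, but that in IPE was close to it. CBPE was 1.91-fold and RPE 1.44-fold above IPE, which is under the 2-fold limit. Of 8 lens genes, Cryaa, Crybb2, Bfsp1, Mip and Lim2 were under the floor on all arrays. Cryab, which many tissues express, was at 1060, 1303 and 1426 in IPE, CBPE and RPE, Crygs at 8.1, 30.9 and 18.6, and Bfsp2 at 53.5, 4.5 and 32.0. Crygs had the order of Lama1 but was under the floor in IPE and close to it in RPE, whereas Bfsp2 was highest in IPE. The part of lens cells in the Lama1 signal was not tested.

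Lama3 and Lamb3 encode the α3 and β3 chains of the trimer that anchors skin and other stratified epithelia through hemidesmosomes. The brighter Lama3 probe set gave 3.8 in IPE, against 15.3 in CBPE and 9.3 in RPE, the other 1.1, 2.1 and 10.6, and the Lamb3 probe set 8.1, 15.8 and 9.8. All 9 values lay under the floors of 14.5 to 17.3, so no order of the cultures can be read from them. Itgb4, which encodes the β4 integrin subunit of hemidesmosomes, was also under the floor everywhere, at 5.1, 10.0 and 4.9.

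The β chain genes differed in opposite directions. Lamb1, whose product is the β1 chain, gave 1838 in IPE, against 887.6 in CBPE and 756.1 in RPE by the probe set that represents it. IPE was 2.07-fold above CBPE and 2.43-fold above RPE, while CBPE and RPE differed by 0.23 on the log2 scale, within the SD. A further probe set gave 557.4, 273.3 and 145.0, which are folds of 2.04 and 3.84 over CBPE and RPE, and the other gave 659.2, 103.9 and 89.1, folds of 6.34 and 7.40. All 3 ranked the cultures alike, with the gap in size between probe sets larger than the SD, and the remaining probe set was under the floor everywhere.

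Lamb2 encodes the β2 chain, found in synaptic, glomerular and retinal basement membranes. Its single probe set gave 371.5 in IPE, against 619.1 in CBPE and 528.8 in RPE. IPE was thus the lowest, by 1.67-fold against CBPE and 1.42-fold against RPE. The log2 differences of 0.74 and 0.51 are larger than the probe-set SD but below 2-fold. After the arrays were scaled to equal medians they were 0.48 and 0.30, within the SD.

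The ratio of Lamb2 to Lamb1 inside an array is not altered by a scaling factor applied to the whole array. By the probe sets that represent the genes it exceeded the IPE ratio 3.45-fold in CBPE and 3.46-fold in RPE. Those are log2 changes of 1.79 in both, against an SD of 0.70 and 0.64 for a ratio of probe sets. Over the 3 Lamb1 probe sets above the floor, the change was 3.40-fold to 10.6-fold for CBPE and 3.46-fold to 10.5-fold for RPE. Between RPE and CBPE it was at most 1.61-fold. The 2 β chains therefore differed unequally from IPE, and the ratio alone does not say which of them did.

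**Figure D2:**
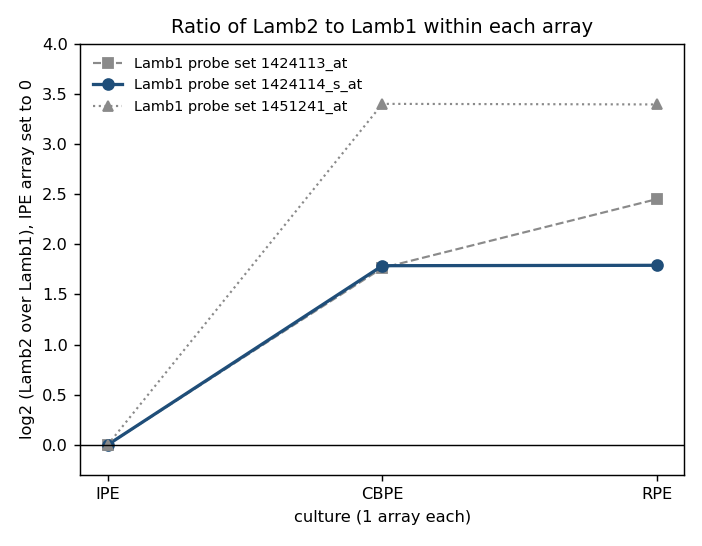
Log2 ratio of the Lamb2 signal to the Lamb1 signal within each array, set to 0 in IPE, with 1 line for each Lamb1 probe set above the floor and the blue line for the one that represents Lamb1. Both other cultures lie above IPE by 1.77 to 3.40 on the log2 scale.

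Lamc1 encodes the γ1 chain, the partner of the α1, α2, α4 and α5 chains. Its brighter probe set gave 990.8 in IPE, against 421.7 in CBPE and 322.1 in RPE. IPE was 2.35-fold above CBPE and 3.08-fold above RPE, and CBPE exceeded RPE by 0.39 on the log2 scale, more than the SD of 0.29. The dimmer probe set gave 87.7, 20.4 and 37.7, again highest in IPE, but with CBPE below RPE and only just above the 20.2 of the bacterial controls. The order of CBPE and RPE for Lamc1 therefore depended on the probe set.

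Relative to Lamc1 on the same array, Lama2 and Lamb1 differed by less than the SD of a ratio by the probe sets that represent them. The ratio of Lama2 to Lamc1 differed 1.04-fold between CBPE and IPE and 1.17-fold between RPE and IPE, and that of Lamb1 to Lamc1 1.13-fold and 1.27-fold. The ratio of Lama5 to Lamc1 was 1.21-fold and 1.49-fold higher in IPE, within the SD, but over the other 3 pairs of probe sets the excess over RPE was 1.98-fold to 2.69-fold, beyond it. In contrast, by the probe sets that represent the genes, the ratio of Lama4 to Lamc1 exceeded that in IPE by 1.71-fold in CBPE and 2.38-fold in RPE. That of Lamb2 to Lamc1 did so by 3.92-fold and 4.38-fold, all larger than the SD of a ratio. The dimmer Lama4 probe set, under the floor in CBPE, was left out of these ratios. By it IPE was at least 4.98-fold above CBPE and 5.03-fold above RPE, more than the 2.35-fold and 3.08-fold of Lamc1. The direction of the Lama4 ratio therefore depended on the probe set. Measured against the dimmer Lamc1 probe set, the Lama2 and Lamb1 ratios in CBPE were 1.91-fold and 2.08-fold above IPE, so their closeness to Lamc1 there rests on the brighter one. The Lama5 ratio in CBPE was then 1.52-fold above IPE instead of below it. By the Lamb1 probe set with the largest folds, the ratio of Lamb1 to the brighter Lamc1 probe set was 2.70-fold lower in CBPE and 2.41-fold lower in RPE.

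**Figure D3:**
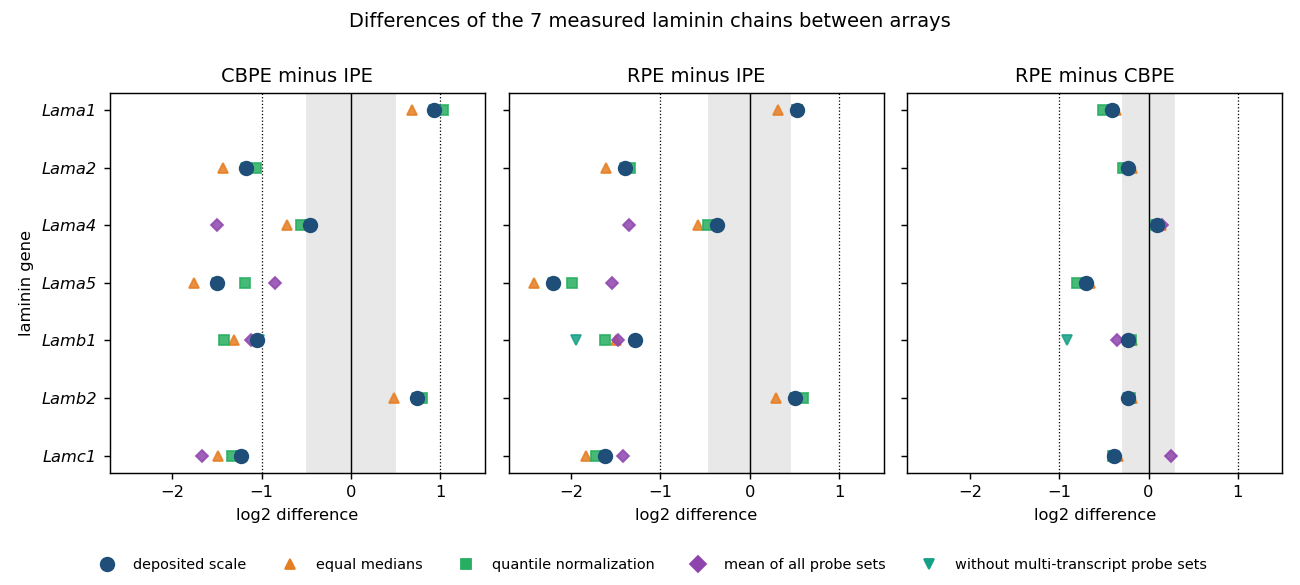
Log2 differences of the 7 measured laminin genes between arrays, in 1 panel per pair, with blue circles for the deposited scale and other marks for 4 alternatives (2 scalings, 2 choices of probe set). The grey band is the SD between probe sets of a gene and dotted lines mark 2-fold. Lama2, Lama5, Lamb1 and Lamc1 lie left of -1 in both comparisons with IPE on the deposited scale, and only Lama5, in CBPE minus IPE with the mean of all probe sets, moves inside it.

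Between RPE and CBPE all differences were under 2-fold by the probe sets that represent the genes. The largest was that of Lama5, at -0.70, followed by Lama1 at -0.41 and Lamc1 at -0.39, all lower in RPE and above the SD of 0.29. Those of Lama2, Lamb1, Lamb2 and Lama4 lay within the SD. By other probe sets Lamb1 was at -0.91 and Lama5 at -1.33, both beyond it. The dimmer Lamc1 probe set went the other way, at 0.89, with RPE higher and also beyond the SD. By the probe sets that represent them, 6 of the 7 measured genes had the lower signal in RPE, with Lama2, Lamb1 and Lamb2 within the SD. The share of all genes lower in RPE was not counted, and the median of all genes was -0.0020.

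Sequence just before the gene start was available from RefSeq for 5 of the 9 genes, in windows of build GRCm38.p6. Bases upstream of the outermost annotated start could be taken for Lama5, Lamb1 and Lamb2. Those of Lama2 and Lamb3 were left out because they overlap an annotated transcript. All 3 stretches that could be taken are shown, and the signals played no part in the choice. Each is written 5′ to 3′ along the gene, and capitals mark GGGCGG, the core of the GC box bound by Sp1-type factors, on either strand. The stretches lie at chr2:180225905-180226109 on the minus strand for Lama5, chr12:31265043-31265145 on the plus strand for Lamb1 and chr9:108479612-108479846 on the plus strand for Lamb2.
Lama5: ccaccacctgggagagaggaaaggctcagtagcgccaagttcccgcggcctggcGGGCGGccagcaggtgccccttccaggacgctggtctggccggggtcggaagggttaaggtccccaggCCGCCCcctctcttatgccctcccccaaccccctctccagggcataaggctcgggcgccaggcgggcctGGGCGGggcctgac
Lamb1: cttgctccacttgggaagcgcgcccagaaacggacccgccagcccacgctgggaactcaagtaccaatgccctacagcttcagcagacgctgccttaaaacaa
Lamb2: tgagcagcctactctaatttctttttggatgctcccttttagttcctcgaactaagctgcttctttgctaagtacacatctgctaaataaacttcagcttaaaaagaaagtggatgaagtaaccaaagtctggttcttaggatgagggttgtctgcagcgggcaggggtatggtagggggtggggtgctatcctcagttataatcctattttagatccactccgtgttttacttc
The Lama5 stretch of 205 bases is 71.7% G and C and holds GGGCGG 3 times. Of the 32851 windows in the table, cut to the same 205 bases, 25.6% hold that motif and 93.2% have a lower G and C content. The Lamb1 stretch of 103 bases is 58.3% G and C and the Lamb2 stretch of 235 bases 43.0%, and GGGCGG is in neither, against 10.8% and 30.6% of windows of those lengths. CCAAT, searched on both strands, is found once in Lamb1 and not in the other stretches, and is present in 13.9% of windows of 103 bases. TATAAA, searched likewise, is in none of the 3. The E-box pattern CANNTG occurs 2 times in Lama5 and 1 time each in Lamb1 and Lamb2, against 59.8%, 37.0% and 64.1% of windows of the same lengths. These matches describe letters in short windows, and no binding was measured.

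Other basement membrane genes were read beside the laminins from lists written by name. For the counts of these and the following lists, the shares of all genes are the measure. IPE was at least 2-fold higher for 12.5% of all genes against CBPE and 10.5% against RPE, and lower for 11.8% and 9.87%. Of the 6 type IV collagen genes, the network-forming collagens of the basement membrane, 2 differed by 2-fold between CBPE and IPE, both with IPE higher, and so did 2 of the 5 measured between RPE and IPE. Col4a5 read 1588 in IPE, against 215.9 in CBPE and 586.4 in RPE, and Col4a6, its neighbour on the X chromosome, at 346.6, 31.1 and 68.3. The main chains Col4a1 and Col4a2, named here after their values were seen, were within 2-fold, with Col4a1 at 2604, 4179 and 2803 in that order. Of 17 other basement membrane proteins, 16 were measured in each comparison with IPE. Against CBPE, IPE was at least 2-fold higher for 4 and lower for 2 of them, and the median of CBPE minus IPE was -0.78. Against RPE, it was higher for 4 and lower for 1, and the median of RPE minus IPE was -0.67. The lower ones were Smoc2 in both cases and Col15a1 against CBPE, named after their values were seen. Agrn, which encodes the laminin- and dystroglycan-binding proteoglycan agrin, read 887.6 in IPE, against 444.0 in CBPE and 239.7 in RPE. Col18a1, the source of endostatin, was at 729.5, 325.4 and 123.3, the latter 5.92-fold below IPE. Fbln1 and Smoc1 were also highest in IPE, whereas Npnt was highest in RPE, at 222.0 against 155.0 in IPE and 58.8 in CBPE.

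Netrins share the N-terminal domain of laminin chains. Ntn1, the gene of an axon guidance factor, read 347.5 in IPE, 3.87-fold above the 89.7 in CBPE and 5.31-fold above the 65.5 in RPE. Ntn4, whose product binds the γ1 chain and blocks laminin polymerisation, read 557.8 in IPE, against 275.6 in CBPE and 128.6 in RPE. Of the 4 netrin genes measured, IPE exceeded CBPE by 2-fold in 2 and RPE in 3, the further one being Ntng1 at 46.4 against 18.6, and no netrin gene was lower by 2-fold. Lamc3, the gene of the γ3 chain, exceeded its floor only in CBPE, with 23.1.

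Of the 14 laminin receptor genes, 13 were measured. The shares of all genes with IPE at least 2-fold higher were 12.5% against CBPE and 10.5% against RPE, and with IPE lower 11.8% and 9.87%. Of the 13 receptor genes, IPE was at least 2-fold higher for 4 and lower for 2 in each of its comparisons. Those higher in IPE were Itga6, Itga7 and Itgb1, which encode subunits of laminin-binding integrins, and Bcam, whose product binds the α5 chain and which is also among the other basement membrane proteins. Itga6 read 320.8 in IPE, against 111.3 in CBPE and 71.4 in RPE. Itgb1 was at 1959, 926.2 and 907.1, and a further bright probe set at 2319, 476.5 and 655.2. Dimmer Itgb1 probe sets gave 71.5, 52.6 and 55.3, within 2-fold, and 21.9, 26.1 and 12.1, highest in CBPE. Rpsa, a ribosomal protein gene also described as a laminin receptor and a member of a family with many processed copies, was lower in IPE, at 3098 against 8912 in CBPE and 9249 in RPE. Sdc4, a syndecan gene, read 58.0 in IPE, against 2508 in CBPE and 640.1 in RPE, but its other probe set gave 125.5, 221.2 and 121.3. The median of the list was -0.45 for CBPE and -0.19 for RPE relative to IPE, and the former was 0.08 once probe sets open to more than 1 transcript were left out.

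Genes that glycosylate dystroglycan, which the receptor needs to bind laminin, mostly differed by less than 2-fold. Among all genes, IPE was lower by 2-fold for 11.8% against CBPE and 9.87% against RPE. Of the 14 genes listed, 9 were measured, and 1 was lower by 2-fold in IPE in each comparison, near those shares. None was higher, and the medians were 0.03 for CBPE and 0.35 for RPE. That gene was Gmppb, which encodes a subunit of the enzyme that makes the sugar donor GDP-mannose, at 48.3 in IPE, against 224.3 in CBPE and 234.3 in RPE. Of 10 measured dystrophin complex genes, the links from dystroglycan to the cytoskeleton, IPE was higher by 2-fold for 2 in each comparison, and lower for 1 against CBPE. With 10 genes, 2 is not far from the 12.5% and 10.5% of all genes with IPE higher against CBPE and RPE. Sntb1, a syntrophin gene, exceeded CBPE by 4.12-fold and RPE by 3.78-fold, and Dtna, a dystrobrevin gene, read 52.7 in IPE, against 10.6 in CBPE, under its floor, and 19.9 in RPE. A dimmer Dtna probe set gave 27.8, 17.2 and 31.4 in that order, a further one 15.7, 18.6 and 11.8, and another 22.7, 3.6 and 3.3. The order of the cultures for Dtna therefore depended on the probe set. Sgcd, a sarcoglycan gene, had 45.8 in CBPE and was under the floor in both other cultures.

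**Figure D4:**
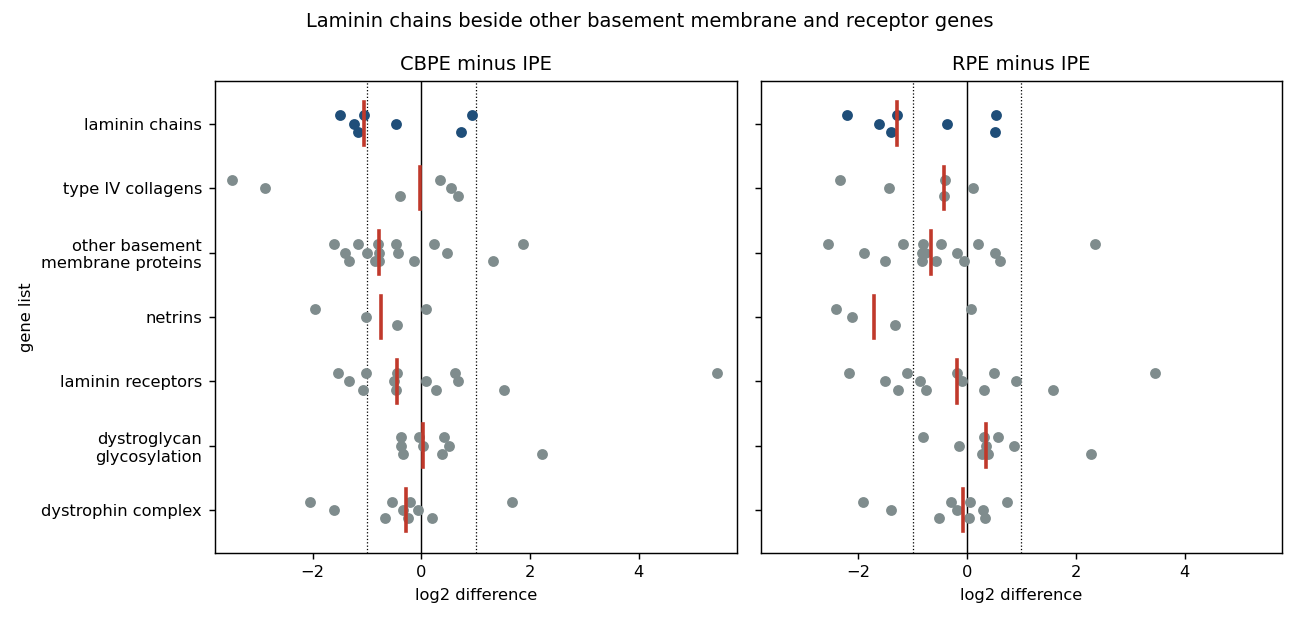
Log2 differences of CBPE and RPE from IPE for the laminin genes (blue) and for the further gene lists (grey), with a point for each gene over the floor on either array of the pair, red bars at list medians and dotted lines at 2-fold. The medians are -1.05 and -1.28 for laminins, -0.02 and -0.43 for type IV collagens, -0.78 and -0.67 for other basement membrane proteins and -0.73 and -1.72 for netrins. They are -0.45 and -0.19 for receptors, 0.03 and 0.35 for dystroglycan glycosylation genes, and -0.29 and -0.07 for dystrophin complex genes.

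By the probe sets that represent the genes, Lama5 had the widest range of the laminins over the 3 arrays, and another Lamb1 probe set had a wider one. Of 11040 genes that exceeded the floor on 2 or 3 arrays, those with the most similar centred log2 signals were Dgkh, Sh3rf1 and the integrin gene Itga6, at Euclidean distances of 0.039, 0.041 and 0.041. With only 3 arrays, 161 genes lay within a distance of 0.5.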

How the data were processed

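Total RNA from each of 3 cultures was labelled with biotin and hybridised to 1 array. The authors deposited linear intensity values per probe set, with software and summary method not given in the sources used here. Each array had a 2% trimmed mean of 100.001, so these deposited intensities were already scaled to 1 target and were kept as they are. Array number, not depth, limits the precision. Of 45101 probe sets, 34945 had 1 gene in a platform annotation of 2016, updated by gene identifier to RefSeq GRCm38.p6. Another 932 had several genes and were not used for names.

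A gene counted as different at 2-fold or more with at least 1 signal above the floor. A fold over a signal under the floor is a lower bound. Laminin genes and lists were chosen with earlier results of these data known. All members are named, and of each context list up to 6 of the genes at least 2-fold different, by mean signal. Alternatives were equal medians, quantile normalization, 3 other floors, 2 other choices of probe set and folds of 1.5 and 3. The code was tested on simulated data. Python 3.11.15, numpy 2.4.6, pandas 2.3.3, scipy 1.17.1 and matplotlib 3.10.9 were used.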

Additional observations from a re-analysis of the deposited data

How the results depend on the processing

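No paired analysis was possible because each culture had 1 array. Equal medians moved the median log2 difference of all genes from IPE to -0.22 for CBPE and -0.20 for RPE. The numbers of all genes higher and lower by 2-fold than IPE went from 1513 and 1609 to 945 and 2369 for CBPE, and from 1228 and 1303 to 782 and 1920 for RPE. Of 143 recomputed differences of single laminin genes, 1 had another sign, that of Lamc1 in RPE minus CBPE at 0.25 with the mean of all probe sets, and 4 crossed the 2-fold limit. Those were Lama1 at 1.04 after quantile normalization and Lama5 at -0.85 with the mean of all probe sets, both in CBPE minus IPE, and Lama4 with that mean, at -1.50 in CBPE and -1.35 in RPE minus IPE. The Lama5 mean includes a probe set under the floor on every array. With the floor at the 60th percentile, Lama1 was 0.44 and 0.03 above IPE in CBPE and RPE. With a floor of 100 it could not be measured, and Lama5 in RPE minus IPE was -1.29 in place of -2.20.

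At a fold of 3, 0 laminin genes differed between CBPE and IPE and 2 between RPE and IPE, both higher in IPE, against 4.82% and 3.47% of all genes with IPE higher. At a fold of 1.5, CBPE exceeded IPE for 2 of 7 genes, near the 24.4% of all genes. IPE exceeded CBPE for 4, against 23.3% of all genes, and RPE for 4, against 22.2%. CBPE exceeded RPE for 1 gene, Lama5, near the 13.4% of all genes. After quantile normalization CBPE exceeded IPE by 2-fold for 1 gene, Lama1. With floors at the bacterial controls, 1 gene, Lamb3, was counted as higher in both CBPE and RPE than in IPE, through unequal floors alone, and the median in RPE minus IPE was -0.83. All other laminin counts stayed within 1.5 times, and laminin medians within the probe-set SD.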
